A study of Mus musculus with 6 samples.

Results

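Genes that encode the proteins of the cytosolic ribosome were examined in dendritic cells (DCs), the antigen-presenting cells that carry the integrin CD11c. They were taken from the array annotation as symbols made of Rpl or Rps and a number, with at most 1 letter, together with Rpsa, Rplp0, Rplp1 and Rplp2, and without the Rps6k kinases, the -like genes and the pseudogenes. Of 12394 genes with a probe set that names 1 gene alone, 41 met this rule, 22 of the large and 19 of the small subunit, and each was read from its brightest such probe set. A further 27 symbols of the family occurred only on probe sets that also list other symbols, mostly pseudogenes, and were not analysed by name; Rplp1, Rpl5, Rpl10 and Rps15a are among them.

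The study compared total RNA of conventional CD11c+ DCs sorted from the spleen with that of the same cells sorted from lymph nodes, all from mice of the inbred strain BALB/c. Each organ was represented by 3 Affymetrix 3′ arrays, numbered 1 to 3, and no treatment, genotype, sex or age is given in the labels. Every sample was extracted with 20 ng of carrier RNA, had an RNA integrity number above 8.4 and was amplified from 2 ng of total RNA. The labels do not say whether arrays of 1 organ came from separate mice or pools, so the spread behind each p-value is that of these arrays alone and may be technical.

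A ribosome reads mRNA on its small subunit and joins amino acids on its large subunit. As a rule, though not for every one, its proteins are made in near-equal numbers. A subunit that lacks 1 of them is mostly not finished, and the surplus proteins are degraded. Most of their mRNAs begin with a run of pyrimidines, the 5′ terminal oligopyrimidine (TOP) tract, through which the kinase mTOR and the protein LARP1 set their translation. In DCs, protein synthesis is known to change during maturation, when antigen uptake gives way to presentation.

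Ccl22, Ccr7, Fscn1, Cd200 and Serpinb6b were listed as migratory DC genes, of DCs that travel to lymph nodes. This list was chosen with earlier results of these data known, so it is no independent support. Their summed level was 12.08 to 12.63 log2 units in the arrays labelled spleen and 10.10 to 10.53 in those labelled lymph node. All were higher in the former (5 of 5 past the threshold), the opposite of the direction that the list and the labels would give. The cause was not tested. Because of this direction, the text speaks of arrays labelled spleen or labelled lymph node. Each difference is spleen minus lymph node. Conventional DC markers were bright in both groups, with a summed level of 13.87 to 13.97 log2 units in the arrays labelled lymph node and 13.08 to 13.62 in those labelled spleen; 6 of 6 were lower in the latter by sign, and Ciita and Itgax passed. Plasmacytoid DC markers were higher by sign for 8 of 9, with 3 past the threshold (summed level 10.63 to 12.35 against 9.25 to 10.27), and neutrophil markers lower for 5 of 5, with 1 past it (5.67 to 6.86 against 7.37 to 9.46). Macrophage markers were lower by sign for 6 of 6, with 2 lower without overlap and 0 past the threshold (summed level 9.22 to 9.84 against 10.26 to 10.79). Summed levels of B cell markers (6.55 to 7.12 against 6.16 to 6.79), T cell markers (6.90 to 8.61 against 6.51 to 7.57), NK cell markers (8.23 to 9.04 against 8.23 to 8.75) and red blood cell markers (4.12 to 4.68 against 4.66 to 4.98) overlapped between the groups, and 0 of their members passed (0 had an unadjusted p under 0.05). The part of these cell types in the values below was not tested.

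The starts of 10 genes, chosen after their values were seen, are shown for the pyrimidine run that the family is known for. At the annotated start, 9 hold a run and 1 does not. The lines below give 30 bases around the start annotated by RefSeq (assembly GRCm38.p6), 10 before it and 20 after it, with the pyrimidine run in capitals; the first 4 genes stood lower in the arrays labelled spleen, the next 4 differed by -0.20 to 0.12, Rps28 among them with no run, and the last 2 stood higher by sign.
Rplp2 (chr7:141447641-141447670, plus strand): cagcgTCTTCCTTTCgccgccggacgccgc
Rps9 (chr7:3704031-3704060, plus strand): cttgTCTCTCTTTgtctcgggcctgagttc
Rps10 (chr17:27635225-27635254, minus strand): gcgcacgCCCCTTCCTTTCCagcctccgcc
Rpl27a (chr7:109519185-109519214, plus strand): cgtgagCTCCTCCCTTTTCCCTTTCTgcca
Rps18 (chr17:33955646-33955675, minus strand): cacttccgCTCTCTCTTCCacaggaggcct
Rpl35 (chr2:39005112-39005141, minus strand): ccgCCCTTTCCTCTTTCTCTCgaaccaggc
Rpl13a (chr7:45128726-45128755, minus strand): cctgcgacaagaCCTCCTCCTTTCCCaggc
Rps28 (chr17:33824543-33824572, minus strand): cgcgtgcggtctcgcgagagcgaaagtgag
Rpl14 (chr9:120571507-120571536, plus strand): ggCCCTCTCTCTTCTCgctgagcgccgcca
Rps6 (chr4:86857348-86857377, minus strand): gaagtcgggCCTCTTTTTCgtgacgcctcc
In all, 36 of the 41 genes had a RefSeq start window (42 windows, since some genes have several starts). A C followed by at least 4 C or T on the sense strand, beginning within 5 bases of the start, was present in 45.2% of these windows and in 17.1% of all 32851 windows of the table. The 18 genes with such a run at an annotated start had a median difference of -0.21 log2 units, and the 18 without it a median of -0.31. The search read only bases near the annotated start, so a missing run does not show that the mRNA lacks a TOP tract.

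Upstream of the start, the 250 bases before it are shown for Rplp2, the member with the largest difference, and for Rps10, the one of the small subunit head with the largest difference, to show how the motifs searched lie in them; both were chosen after their values were seen.
Rplp2 (chr7:141447401-141447650, plus strand): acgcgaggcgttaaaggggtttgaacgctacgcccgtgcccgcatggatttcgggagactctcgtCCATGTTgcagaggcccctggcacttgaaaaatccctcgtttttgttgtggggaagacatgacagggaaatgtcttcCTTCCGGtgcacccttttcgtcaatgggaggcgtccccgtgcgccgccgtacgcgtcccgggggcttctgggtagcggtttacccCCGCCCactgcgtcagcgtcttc
Rps10 (chr17:27635245-27635494, minus strand): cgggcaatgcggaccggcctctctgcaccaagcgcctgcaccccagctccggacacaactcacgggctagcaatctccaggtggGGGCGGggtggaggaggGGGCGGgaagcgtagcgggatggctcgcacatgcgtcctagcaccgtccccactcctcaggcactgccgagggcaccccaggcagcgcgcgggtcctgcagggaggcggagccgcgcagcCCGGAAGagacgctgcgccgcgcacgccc
The capitals mark the ETS family letters CCGGAAG, the Sp family letters GGGCGG and the YY1 letters CCATNTT on either strand; TATAAA was also searched. Over windows of 300 bases (250 before to 50 after the start), CCGGAAG was present in 42.9% of the members' windows and 8.86% of all windows, GGGCGG in 52.4% and 35.7%, CCATNTT in 31.0% and 16.1%, and TATAAA in 11.9% and 13.6%. Matches of different motifs overlapped each other in 2 of the 42 windows. The 18 genes with CCGGAAG had a median difference of -0.17 and the 18 without it -0.31. With CCATNTT the medians were -0.45 (11 genes) and -0.21 (25 genes), and with GGGCGG -0.33 (20 genes) and -0.17 (16 genes).

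Of the 41 ribosomal protein genes, 33 were lower in the arrays labelled spleen by sign (80.5%, against 50.7% of all genes). The count was 32 after median centring and 30 after a second quantile normalization. The median log2 difference was -0.23 against -0.0053 for all genes. After the second quantile normalization it was smaller, -0.13 against -0.026 for all genes. The probe sets of 30 of the 41 carry a letter suffix (a, s or x) in their name, not all of which stand for cross-hybridisation between genes. With all such probe sets left out, 20 members could be measured, without Rplp2. Of these, 12 (60.0%) were lower by sign, and their median was -0.29 against -0.01 for all genes. Leaving out the suffixed probe sets moved several genes to dim ones. Examples are Rps10 at 3.67 to 5.06 and Rpl35 at 3.43 to 5.03 log2 units, both then higher by sign, and Rps9 at 4.69 to 6.25, lower. Rplp2, which encodes a protein of the acidic stalk that recruits elongation factors, fell 2.71-fold and was the 1 member past an adjusted p of 0.05 in limma, a moderated linear model fitted on all genes (1 lower and 0 higher of 41, 2.44% lower; over all genes 1.37% passed as lower and 3.40% in either direction). At an unadjusted p under 0.05, 12 members were lower and 0 higher (29.3%, against 9.75% of all genes lower). In 16 members (39.0%) the groups did not overlap with the arrays labelled spleen lower, as in 12.7% of all genes; 0 members lay higher without overlap, against 11.8% of all genes. Most members are bright, and bright genes parted the groups more often: among genes with a mean above 10, 13 of 33 members (39.4%) were lower without overlap against 22.3% of all 461 such genes, and 30.3% against 15.2% were lower at an unadjusted p under 0.05. In sorted bulk samples, fewer cells of a type and less of an mRNA per cell cannot be told apart. The arrays were brought to near-equal distributions by the authors, so every value is relative to the other genes on the array.

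**Figure D1:**
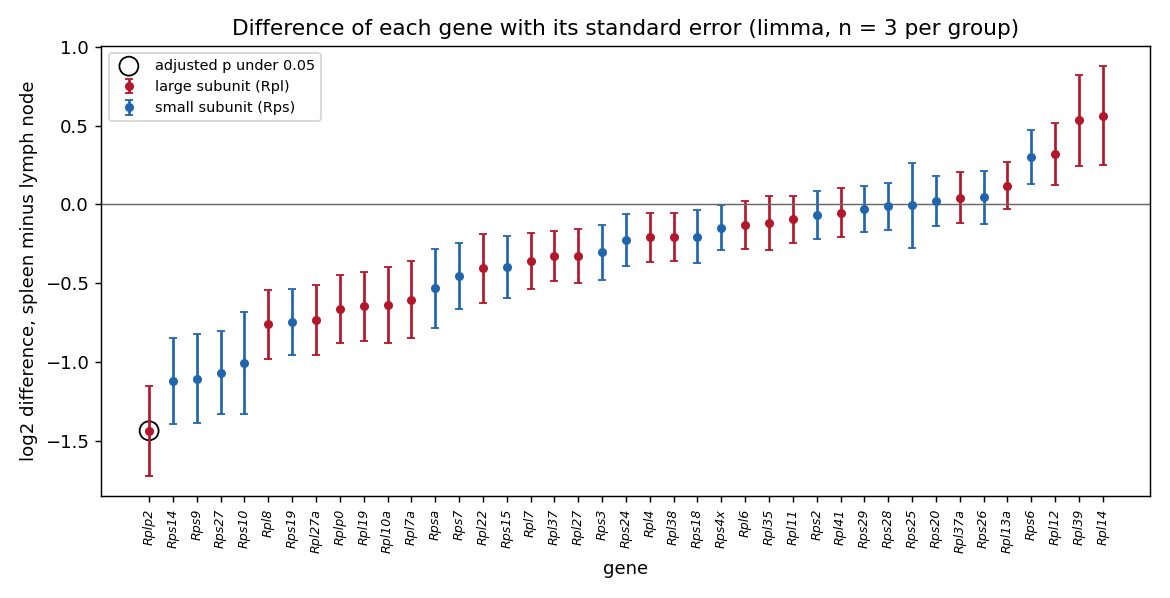
Log2 difference (arrays labelled spleen minus arrays labelled lymph node) of each of the 41 genes with its standard error from limma, 3 arrays per group; red marks the large and blue the small subunit. Of the points, 33 lie below 0, and the circled gene, Rplp2 at -1.44, is the 1 past the threshold.

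In the stalk of the large subunit, Rplp2 had log2 intensities of 12.18, 12.32 and 11.56 in the arrays labelled lymph node and 10.07, 10.85 and 10.82 in the arrays labelled spleen. The groups did not overlap, and spleen array 1 was the lowest of all. The difference was -1.44 ± 0.29 (SE, n = 3 per group; adjusted p = 0.0404), from the single probe set of this gene. It no longer passed when lymph node array 1 (adjusted p = 0.173) or 2 (0.165) was left out, nor when any array labelled spleen was (0.0960 without the first, 0.0563 without the second and 0.0509 without the third), and passed without lymph node array 3. Rplp0, the stalk protein that anchors the acidic ones to the ribosome, read 10.81, 11.02 and 10.59 against 9.81, 10.47 and 10.15, again without overlap. Its difference was -0.66 ± 0.22 (SE) and did not pass (adjusted p = 0.147). Rpl12, at the base of the stalk, went the other way by sign, with 7.13, 7.31 and 6.86 in the arrays labelled lymph node and 7.48, 7.63 and 7.15 in the arrays labelled spleen. These groups overlapped (difference 0.32 ± 0.20, SE; adjusted p = 0.445).

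The body and platform of the small subunit held 3 of the 5 members that were at least 1 log2 unit lower (12.2% of the members, against 2.16% of all genes). Rps14, a platform protein next to the site where mRNA leaves and a gene of the 5q- syndrome in humans, read 11.73, 11.91 and 11.48 in the arrays labelled lymph node and 10.01, 11.01 and 10.75 in those labelled spleen. The groups did not overlap, yet the difference of -1.12 ± 0.27 (SE) missed the threshold (adjusted p = 0.0705). A second probe set of Rps14 differed by -1.28, in the same direction. Rps9, which helps the subunit check codons, read 11.69, 11.90 and 11.32 against 9.97, 10.94 and 10.69. Its difference was -1.11 ± 0.28 (SE; adjusted p = 0.0775), and its dimmer probe sets differed by -0.76 and 0.13, so they did not all share the sign. Rps27 differed by -1.07 ± 0.27 (SE; adjusted p = 0.0734), from a dim probe set at 4.36 to 5.11 against 3.29 to 4.01. Rps14 passed among genes above the median level, Rps14 and Rps9 with the trend and robust options of limma (adjusted p = 0.0407 and 0.0479), and with array weights those and Rps27 did (0.0389, 0.0432 and 0.0389).

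Other proteins of the body varied less. Rpsa, the protein also described as a laminin receptor, read 11.77, 12.02 and 11.58 against 10.74, 11.59 and 11.44, so that the groups overlapped narrowly, with spleen array 1 far below the rest (difference -0.53 ± 0.25, SE; adjusted p = 0.308). Rps7 differed by -0.45 and Rps24 by -0.23, both with overlap. Rps4x, the X-linked form of its protein, was even across arrays, at 11.80, 11.78 and 11.82 against 11.71, 11.66 and 11.59. Its groups did not overlap, with a difference of -0.15 ± 0.14 (SE; adjusted p = 0.654). Rps2 differed by -0.07 and Rps26 by 0.05. Rps6, the substrate of the S6 kinases below mTOR, was represented by a dim probe set at 5.30 to 5.71 against 5.65 to 5.83 (difference 0.30 ± 0.17, SE; adjusted p = 0.405). Its second probe set was dimmer still, at 2.70 to 2.89 against 3.17 to 4.58, and was the 1 of the 90 probe sets with 1 symbol that was higher without overlap (difference 1.05).

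In the head of the small subunit, 8 of 9 members were lower by sign, with a median of -0.20. Rps10, near the path by which mRNA enters, read 10.77, 11.07 and 10.18 in the arrays labelled lymph node and 9.05, 9.999 and 9.94 in those labelled spleen. The groups were nearest between lymph node array 3 and spleen array 2 (difference -1.01 ± 0.32, SE; adjusted p = 0.140). Of its 6 probe sets, 5 were lower without overlap, by -0.61 to -1.44, and the other, at 3.67 to 5.06, differed by 0.54. Rps19, the protein most often mutated in Diamond-Blackfan anaemia, an inherited failure of red cell production, read 9.52, 9.91 and 9.23 against 8.65, 8.99 and 8.78 without overlap (difference -0.75 ± 0.21, SE; adjusted p = 0.104). Rps15 differed by -0.40, Rps3, which also takes part in DNA repair, by -0.30, and Rps18 by -0.20, all with overlap. Rps28 and Rps29 were nearly level: Rps29 read 12.80, 12.77 and 12.71 against 12.73, 12.69 and 12.79, a difference of -0.03 ± 0.14 (SE; adjusted p = 0.943). Rps20 (0.02) and Rps25 (-0.0048) had groups that overlapped as well.

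Within the large subunit, 17 of 22 members were lower by sign, with a median of -0.27. Rpl8, near the catalytic centre, read 10.42, 10.62 and 10.11 against 9.28, 9.90 and 9.69, and every array labelled spleen was below every array labelled lymph node (difference -0.76 ± 0.22, SE; adjusted p = 0.110). Rpl27a read 11.07, 11.23 and 10.65 against 9.96, 10.55 and 10.23, likewise without overlap (difference -0.73 ± 0.22, SE; adjusted p = 0.125). Rpl10a (-0.64), Rpl7a (-0.60) and Rpl27 (-0.32) were lower without overlap and did not pass. At the rim of the tunnel through which the new protein leaves, Rpl19 differed by -0.65 ± 0.22 (SE; adjusted p = 0.164), Rpl35 by -0.12 and Rpl39 by 0.53. Rpl22, also known for its role in T cell development, read 10.84, 11.00 and 10.48 against 10.06, 10.68 and 10.38, with overlap (difference -0.41 ± 0.22, SE; adjusted p = 0.378).

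The other large subunit genes had small differences or stood higher by sign. Rpl11, which with Rpl5 and the 5S RNA forms the particle that can bind Mdm2, read 11.31, 11.36 and 11.17 against 11.11, 11.21 and 11.23 (difference -0.09 ± 0.15, SE; adjusted p = 0.803). Rpl38, which was linked in mice to the patterning of the skeleton, read 12.36, 12.46 and 12.21 against 12.06, 12.19 and 12.17 (difference -0.21 ± 0.15, SE; adjusted p = 0.532). Rpl13a, known for the release of its phosphorylated form from the ribosome in interferon-treated monocytes, read 12.13, 12.14 and 12.01 against 12.30, 12.20 and 12.14, and overlapped (difference 0.12 ± 0.15, SE; adjusted p = 0.736). Another probe set of Rpl13a differed by -0.55 without overlap, so its probe sets disagreed. Rpl41, which encodes a very short protein, differed by -0.05 and Rpl37a by 0.04. Rpl14 read 6.61, 7.09 and 5.95 against 7.07, 7.48 and 6.79 and had the highest difference of the family, 0.57 ± 0.31 (SE; adjusted p = 0.388), followed by Rpl39, at 6.53, 6.57 and 6.31 against 7.09, 6.37 and 7.54. For both genes the sign turned, to -0.42 for Rpl14 and -0.20 for Rpl39, when probe sets that also list pseudogenes were counted for them, an alternative chosen after seeing the data. Rpl37 was lower without overlap, but its probe set lay at 1.68 to 2.26, in the range of a bacterial control transcript that was not above background (1.63 to 2.77).

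**Figure D2:**
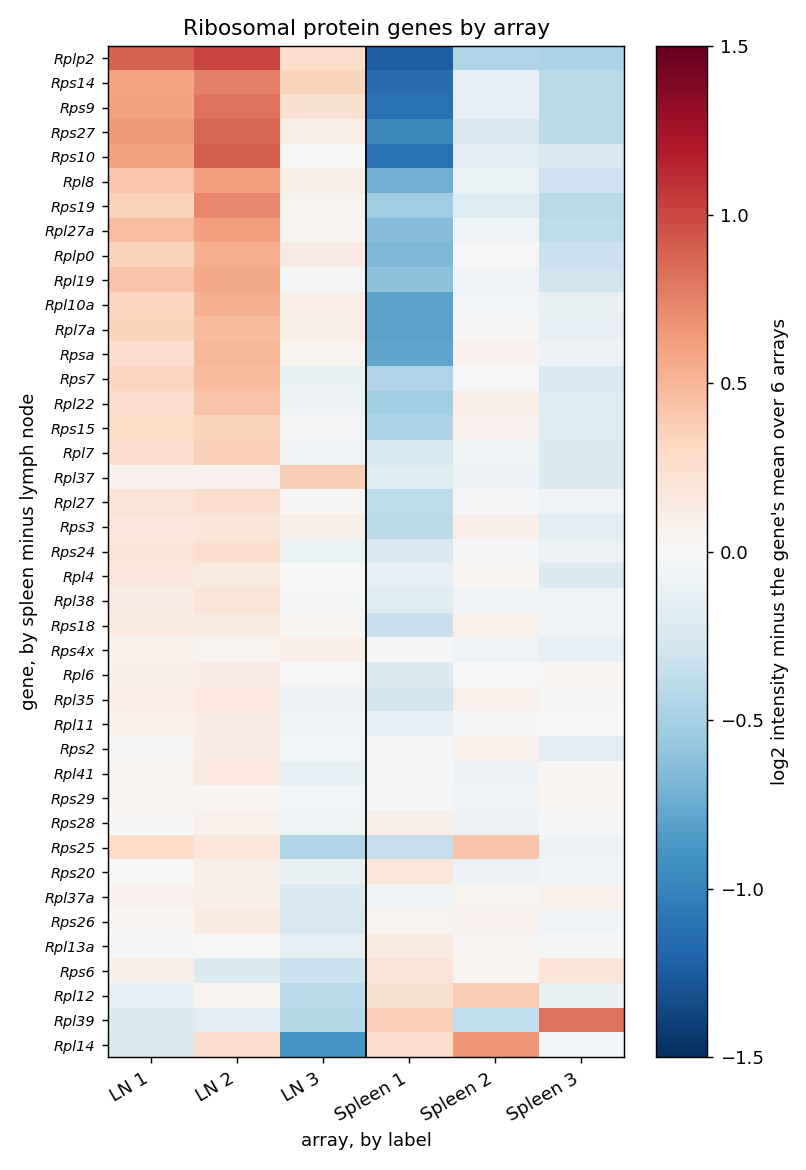
Log2 intensity of each gene on each array minus the gene's own mean over the 6 arrays, with genes ordered by their difference (lowest at the top) and LN for lymph node; red is above and blue below the gene's mean, and the black line parts the groups. Spleen array 1 is the lowest array for 25 of 41 genes and lymph node array 2 the highest for 28.

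The members varied together from array to array, also within a group. Their first principal component held 84.8% of their variance over the 6 arrays. The values were centred but not scaled, so this share includes the group difference and weighs the most variable genes most. The median Pearson correlation between 2 members over the 6 arrays was 0.54. Spleen array 1 was the lowest array for 25 of 41 members, against 23.0% of all genes, and lymph node array 2 was the highest for 28, against 15.5% of all genes. In 24 members both held at once. The mean of the 41 log2 values was 10.51, 10.62 and 10.25 in the arrays labelled lymph node and 9.95, 10.29 and 10.17 in those labelled spleen, so that the groups overlapped between lymph node array 3 and spleen array 2. A mean over the members therefore did not part the groups, although most single members were lower by sign. Without spleen array 1 the median difference was -0.19, without lymph node array 2 it was -0.19, and with any single array left out it stayed between -0.30 and -0.19.

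Several control probe sets moved with these genes, at the 5′ end and elsewhere. The probe set at the 5′ end of Gapdh, a glycolytic gene used as an RNA quality control on these arrays, read 8.34, 8.43 and 8.12 in the arrays labelled lymph node and 7.23, 7.86 and 7.79 in the arrays labelled spleen. The middle probe set of Gapdh read 8.94, 9.17 and 8.74 against 7.73, 8.66 and 8.49, also without overlap. The probe set at the 3′ end of the same mRNA read 10.94, 11.13 and 10.90 against 10.67, 11.11 and 10.93, with overlap. The excess of the 3′ over the 5′ end of Gapdh was thus 2.60 to 2.79 log2 units in the first group and 3.14 to 3.44 in the second, and that of the 18S ribosomal RNA 0.84 to 1.08 against 1.44 to 1.90. For Actb it overlapped, at -0.35 to -0.17 against -0.33 to -0.18. The 3′ Gapdh probe set and the 3′, middle and 5′ probe sets of Actb were also lowest on spleen array 1 and highest on lymph node array 2. The 3′ and middle probe sets of 18S were not lowest there. In 14 of 41 members, among them Rplp2, Rps14, Rps9, Rps10, Rps19, Rpl8 and Rplp0, the 6 arrays stood in exactly the order of the Gapdh 5′ probe set, an order found in 1.22% of all genes; this tally was chosen after the values were seen. The bacterial poly-A control RNAs, added to track labelling, were higher in the arrays labelled spleen (mean of 24 probe sets 8.41 to 9.06 against 7.39 to 7.96). The part of 5′ coverage and of the poly-A controls in the ribosomal protein values was not tested, and the Gapdh excess, the 18S excess and the poly-A controls cannot be told apart from the organ, since each of these separates the groups without overlap, which the Actb excess does not.

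**Figure D3:**
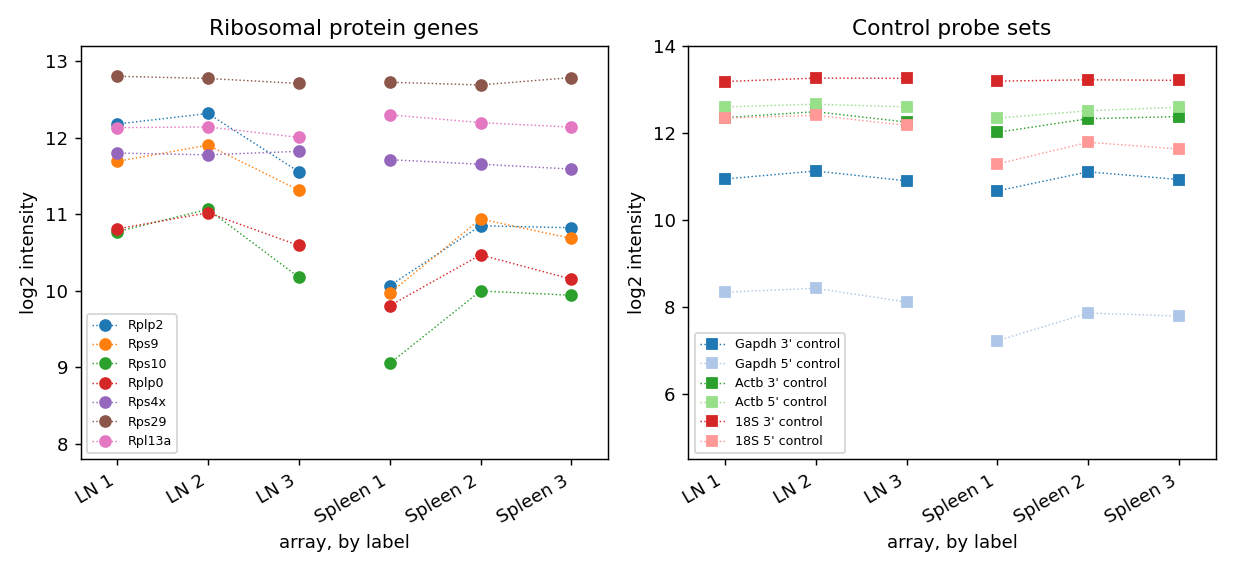
Log2 intensity by array of 7 ribosomal protein genes (left) and of the Gapdh, Actb and 18S control probe sets at the 3′ and 5′ ends (right), with LN for lymph node; each point is 1 array, dotted lines only link the points of a group, and levels are not comparable between probe sets. Rplp2, Rps9, Rps10 and Rplp0 are lowest on spleen array 1. So are the 5′ controls of Gapdh (7.23) and 18S, the 3′ control of Gapdh and both Actb controls. Rps29, Rps4x and Rpl13a stay nearly level.

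At the level of probe sets, the family was read by 90 that list 1 symbol. Of these, 68 were lower in the arrays labelled spleen by sign and 22 higher (75.6% lower, against 51.0% of all 22626 probe sets without the controls). Without overlap, 28 were lower (31.1%, against 12.5%) and 1 was higher (1.11%, against 11.5%), and 1 passed (1.11%, against 2.78%). The direction was more uniform among bright probe sets: of the 64 with a mean above 8, 58 were lower by sign and 6 higher (90.6% lower, against 51.4% of all probe sets this bright), and 24 were lower without overlap (37.5%, against 19.6%). Several probe sets existed for 21 members, and in 10 of these every probe set pointed the same way. The 102 probe sets that list a member beside other symbols, a separate set of measurements on the same arrays, had a median difference of -0.27 (range -1.18 to 0.69). Of these, 80 were lower by sign (78.4%) and 36 lower without overlap (35.3%), 5 were higher without overlap (4.90%), and 0 passed in limma over all probe sets.

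Genes around the ribosome were compared next. Of the ribosomal protein genes outside the rule, Fau, which encodes a ubiquitin-like protein fused to a small subunit protein, read 11.33, 11.39 and 10.86 against 10.07, 10.60 and 10.52 (difference -0.80 ± 0.22, SE; adjusted p = 0.0980). Rps3a1 differed by -0.23. Of the -like genes, 0 of 6 passed (1 had an unadjusted p under 0.05) and the median was 0.03; Rps27l, a target of the tumour suppressor p53, differed by 0.52 (adjusted p = 0.208). Among the 74 mitochondrial ribosomal proteins, which build the ribosome of that organelle from nuclear genes, 54 were lower by sign with a median of -0.11. None passed the threshold in limma (0 of 74, with 8 lower and 2 higher at an unadjusted p under 0.05), and 11 were lower without overlap (14.9%, against 12.7% of all genes) and 2 higher (2.70%, against 11.8%). Mrpl17 had the smallest p among these (difference -0.91, adjusted p = 0.0885).

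**Figure D4:**
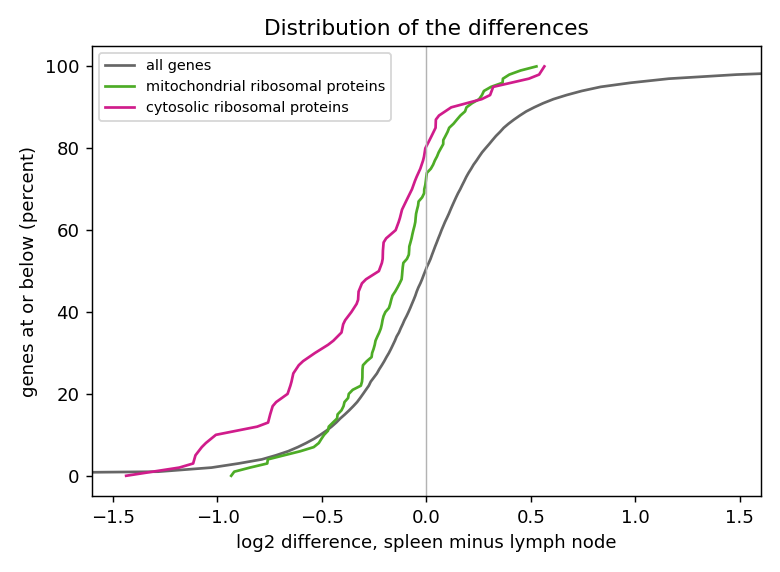
Percent of genes (vertical axis) whose log2 difference, arrays labelled spleen minus arrays labelled lymph node, lies at or below the value on the horizontal axis, for all 12394 genes, the 74 mitochondrial and the 41 cytosolic ribosomal protein genes. The curve of the cytosolic proteins lies to the left, with a median of -0.23 against -0.11 and -0.0053; genes beyond 1.6 log2 units are outside the plot.

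The genes that make and use ribosomes were nearer to the median of all genes. For comparison, 50.7% of all genes were lower by sign, and 9.75% were lower at an unadjusted p under 0.05 in limma. Of 40 genes of ribosome assembly and the nucleolus, 21 were lower by sign (median -0.05) and 0 passed in limma (4 lower and 1 higher at an unadjusted p under 0.05). Bop1, a factor that processes the RNA of the large subunit, came nearest (6.12, 6.33 and 6.38 against 5.49, 5.24 and 5.73; adjusted p = 0.0613). Of 12 genes of RNA polymerase I, which transcribes ribosomal RNA, 9 were lower by sign (median -0.08) and 0 passed (0 at an unadjusted p under 0.05); Polr1e differed by -0.43 (adjusted p = 0.282). Of 16 elongation factors and other genes listed as TOP mRNAs, 10 were lower by sign with a median of -0.06. In limma 0 passed (1 lower at an unadjusted p under 0.05). The pyrimidine run was not counted for this list. Eef2, the factor that moves the ribosome along the mRNA, differed by -0.41 (adjusted p = 0.246). Of 21 initiation factors, 12 were lower by sign with a median of -0.16, and 0 passed (2 lower and 2 higher at an unadjusted p under 0.05); Eif3b differed by -0.85 (adjusted p = 0.0780).

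Among 19 regulators of ribosome production, Mxd1 was the 1 gene past the threshold, which 3.40% of all genes passed in either direction. Mxd1 encodes a partner of Max that opposes Myc, and it rose 2.08-fold in the arrays labelled spleen, from 6.53, 6.67 and 6.95 to 7.72, 7.83 and 7.79 (difference 1.06 ± 0.17, SE; adjusted p = 0.0223). The arrays labelled spleen lay close together, and the groups did not overlap. Myc, the activator of ribosome production, read 7.73, 7.81 and 7.68 against 7.35, 7.44 and 7.32 without overlap (difference -0.37 ± 0.15, SE; adjusted p = 0.221). The median of the 19 was 0.0027, with 9 lower and 10 higher by sign.

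The 5 genes outside the family whose values over the 6 arrays were most like the members' mean were Pfdn5, Ppp1r18, Tdp1, Med9 and Haus8, with Pearson correlations of 0.992 to 0.997 over 6 arrays that share 1 normalization and fall into the same groups. Pfdn5 read 9.95, 10.14 and 9.42 against 8.95, 9.47 and 9.30, with overlap (difference -0.60, adjusted p = 0.226).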

How the data were processed

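Gene expression was measured on 6 Affymetrix 3′ arrays, 3 labelled spleen and 3 labelled lymph node. The authors deposited 1 linear-scale intensity for each of 22690 probe sets, including 64 controls. Per the submitters' processing notes, the authors used RMA and limma; versions are not given in the sources used here, and whether a floor or a further scaling was applied is unknown. Array medians were 39.3 to 41.0 without the controls, and the number of arrays limits the precision.

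The intensity was transformed to log2. In the array annotation 20393 probe sets had 1 symbol, 691 had several and 1606 had no symbol. A gene was read from the brightest of its 1-symbol probe sets (mean of the 6 arrays). The groups were compared with limma 3.58.1 in R 4.3.3 (lmFit and eBayes), as a two-sided test; p-values of the 12394 genes were adjusted together by Benjamini-Hochberg, with a threshold of 0.05. All 41 members matched a RefSeq gene by Entrez identifier. The 22 members named by rule were those past the threshold, the 8 lowest and 8 highest differences, the 8 smallest p and 15 fixed genes, of which 11 were measured; others are named by role. In each related list, up to 4 genes past the threshold, otherwise the 1 with the smallest p, were named. The members, lists and tests were chosen with earlier results of these data known, so they are no independent support. The functions were tested on simulated data. Alternatives were other normalizations, an offset, filters, eBayes options, array weights, a replicate block, arrays left out, other choices of probe set and other thresholds.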

Additional observations from a re-analysis of the deposited data

How the results depend on the processing

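The median difference of the ribosomal protein genes was below 0 in all 19 alternatives that give it, from -0.30 to -0.13. The number of members past the threshold was 1 as reported. It was 0 with log2 of the value plus 16, at a threshold of 0.01 and without both arrays numbered 1 or both numbered 2. It was also 0 without the probe sets with a letter suffix (20 members left, Rplp2 not among them, 12 lower by sign). It was 2 with genes above the median level only, 3 with the trend and robust options and 4 with array weights, and 0 to 1 with 1 array left out. The number of all genes past the threshold was 421 as reported, 764 with array weights, 63 at a threshold of 0.01, 8 without both arrays numbered 1, 2 without both numbered 2, and 50 to 478 with 1 array left out. Rplp2 passed in 10 of 18 alternatives that measured it (adjusted p from 0.0188 to 0.335).

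The replicate block gave 1 member and 518 genes past the threshold. The deviations of arrays with the same number correlated by 0.022, 0.24 and 0.16, and 4 of 6 arrays correlated best with their own number; since the first of these is under 0.1, the numbers were not taken to pair the arrays, and whether they do is unresolved.

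The sign turned in 13 of 407 single-gene comparisons. Rpl37a was at -0.0048 with array weights, -0.083 without both arrays numbered 3 and -0.096 with the mean of all probe sets. Rpl13a was at -0.063 with that mean, Rps20 at -0.064 without both arrays numbered 1 and Rps26 at -0.031 without both numbered 3. With 1 array left out, Rps20 ranged from -0.064 to 0.069, Rpl37a from -0.058 to 0.11 and Rps26 from -0.069 to 0.13. Without the probe sets with a letter suffix Rps10 was at 0.54, read from a dim probe set. With probe sets shared with pseudogenes counted, Rpl39 was at -0.20 and Rpl14 at -0.42, and 57 of 66 members were lower by sign. The cause of these changes was not tested. Depth is not defined for arrays; Rpl37, Rps27 and Rps6 were below 6 log2 units on all arrays, where differences are least certain.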
